A study of Mus musculus with 15 samples.

Results

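The 40 genes examined here encode enzymes and membrane proteins of the lysosome. They were listed by function and matched by symbol to the 2 deposited tables, one for whole cultures and one for microdissected regions. The tables hold the genes that passed the authors' filter on low abundance. Of the 40, 37 were in the culture table and 36 in the region table, and 36 were in both, among 11041 genes shared by the tables. *Ctsd*, *Ctsk* and *Ctss* were not analysed here, and *Ctsh* only in the cultures. The lowest count of a listed gene in a sample was 5 reads (*Ctsf* in 2D) in the culture table and 9 (*Manba* in External) in the region table.

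The 15 samples all came from 21EM15, an immortalized mouse lens epithelial cell line labelled as wild type, and their RNA was profiled by sequencing of transcript 3′ ends. The groups were 4 samples of cells grown flat on a dish and collected before confluence (2D), 4 of whole spheroids grown in non-adhesive wells (3D), 4 of the internal and 3 of the external region cut from sections of such spheroids by laser capture. Whole cultures and regions were extracted with different kits and normalized separately, so 3D was compared with 2D and Internal with External, and levels were not compared between the tables. Per the methods of the study, each 2D replicate came from a dish and each 3D or region replicate from a pool of many spheroids, all of a single cell line. They do not say whether an internal and an external replicate were cut from the same pool, and the tests treated the samples as unpaired. The p-values measure the spread between such dishes and pools. One more External sample, which the authors left out because it stood apart from the others in a principal component analysis, is not used here, so that the External spread and each test between regions rest on the samples they retained. Growth in 3D and longer time in culture cannot be told apart, and neither can fewer cells of a type and less RNA per cell.

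Lysosomes are acidic, membrane-bounded compartments in which hydrolases break down proteins, glycans, lipids and nucleic acids delivered by endocytosis and autophagy. A proton pump acidifies their lumen, heavily glycosylated proteins coat the inner face of their membrane, and transporters and channels release the products. Lens fiber cells lose their organelles as they mature, and inherited loss of several of these enzymes causes storage diseases in which the lens or the cornea can cloud.

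Many lysosomal genes carry in their promoters a CACGTG core that transcription factors of the TFEB, TFE3 and MITF family can bind. RefSeq promoter windows on GRCm38.p6, from 250 bases before to 50 bases after an annotated start, were matched for 35 of the 40 genes. Some genes had several windows, and a match in any of them counted. The matches of *Ctsa*, *Lgmn* and *Cln3* lay only in the window of a further start, inside the gene. Shares of the listed and the other genes are per gene, and those of all windows per window. The letters CACGTG, read on both strands, occurred in the windows of 15 of the 35 (42.9%), against 7.15% of all 32851 windows of this length and 11.9% of 8832 other genes of the 2 tables. The longer TCACGTG, which on the other strand reads CACGTGA and contains the core, occurred in 13 (37.1%, against 3.77% of all windows and 7.22% of the other genes). The palindrome TCACGTGA, which contains both, occurred in 7 of the 35, against 0.974% of all windows and 2.33% of the other genes. The window of *Lamp1* held 4 cores within a short stretch before the start, more than that of any other listed gene, and is shown whole (GRCm38.p6, chr8:13158911-13159210, plus strand, 5′ to 3′, matches in capitals).

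Lamp1: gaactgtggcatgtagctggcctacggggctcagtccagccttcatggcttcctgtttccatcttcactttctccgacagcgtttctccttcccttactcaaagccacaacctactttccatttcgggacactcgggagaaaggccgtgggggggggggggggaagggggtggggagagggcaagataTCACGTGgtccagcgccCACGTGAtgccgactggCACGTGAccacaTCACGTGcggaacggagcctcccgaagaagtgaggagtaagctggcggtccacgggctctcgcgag

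Stretches of 24 bases around the match are shown next for 6 genes whose RNA passed the test in at least 1 comparison, in the orientation of the gene. They lie at chr2:164833752-164833775 (*Ctsa*), chr19:4855077-4855100 (*Ctsf*), chr13:64370742-64370765 (*Ctsl*), chr12:102439127-102439150 (*Lgmn*), chr11:119267814-119267837 (*Gaa*) and chr11:101070012-101070035 (*Naglu*), with *Ctsl* and *Lgmn* on the minus strand.
Ctsa: gcaaactgTCACGTGAtgcagatg
Ctsf: cccgtggtcCACGTGcctcgcgta
Ctsl: gttagaagcCACGTGctgatctaa
Lgmn: aatgtctgTCACGTGgtccatttt
Gaa: ctgtgcgaTCACGTGtttgactct
Naglu: ccttcaggTCACGTGgcccgaggt

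The palindrome was also found in 5 genes that passed in neither comparison. Their stretches lie at chrX:134601185-134601208 (*Gla*), chr7:126583343-126583366 (*Cln3*), chr8:3500465-3500488 (*Mcoln1*), chr8:105566053-105566076 (*Atp6v0d1*) and chr16:44139376-44139399 (*Atp6v1a*), on the minus strand for *Gla*, *Cln3*, *Atp6v0d1* and *Atp6v1a*.
Gla: gatctcggTCACGTGAgcaactct
Cln3: gggtactgTCACGTGAcccccaac
Mcoln1: cgccccgcTCACGTGAccgcggcg
Atp6v0d1: tactgcggTCACGTGAgacgcggt
Atp6v1a: tttttaaaTCACGTGAtaggctta

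A match is a run of letters and not a measured binding site. The CACGTG core occurred in 6 of the 13 genes with a window that were higher in both comparisons (*Lamp1*, *Ctsa*, *Ctsf*, *Ctsl*, *Gaa* and *Naglu*) and in 7 of the 14 with a window that passed in neither (the 5 above with *Glb1* and *Sgsh*). Of the 6 measured genes with the palindrome, *Ctsa* was the one that passed.

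Many of the lysosomal genes were more abundant in the 3D spheroids than in the 2D cultures and in the internal than in the external region. Expression is given as the deposited log2 CPM (reads of a gene relative to the library size), and a gene passed the test at an adjusted p under 0.05 from limma, adjusted over all genes of a table. Of the 37 genes, 19 were higher in 3D (51.4%), against 9.74% of the 11677 genes of the table, and 0 were lower, against 9.25%. The median log2 difference of the 37 was 0.73, beside -0.03 for all genes, with a range from -0.34 to 2.75. Of the 36 genes, 16 were higher in Internal (44.4%), against 9.58% of 11299 genes, and 0 were lower, against 12.1%. Their median log2 difference was 0.48, beside 0.04 for all genes, with a range from -0.27 to 1.36. No listed gene was lower at an unadjusted p under 0.05 in either limma fit (0 of 37 and 0 of 36, when 3930 and 3793 genes of the tables had such a p in either direction), and limma voom on the recovered reads also gave 0 lower. With total reads as library size, 17 of the 36 were higher in Internal, when 1448 genes of the region table were higher and 1114 lower, against 1083 and 1370 with the deposited scaling.

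**Figure D1:**
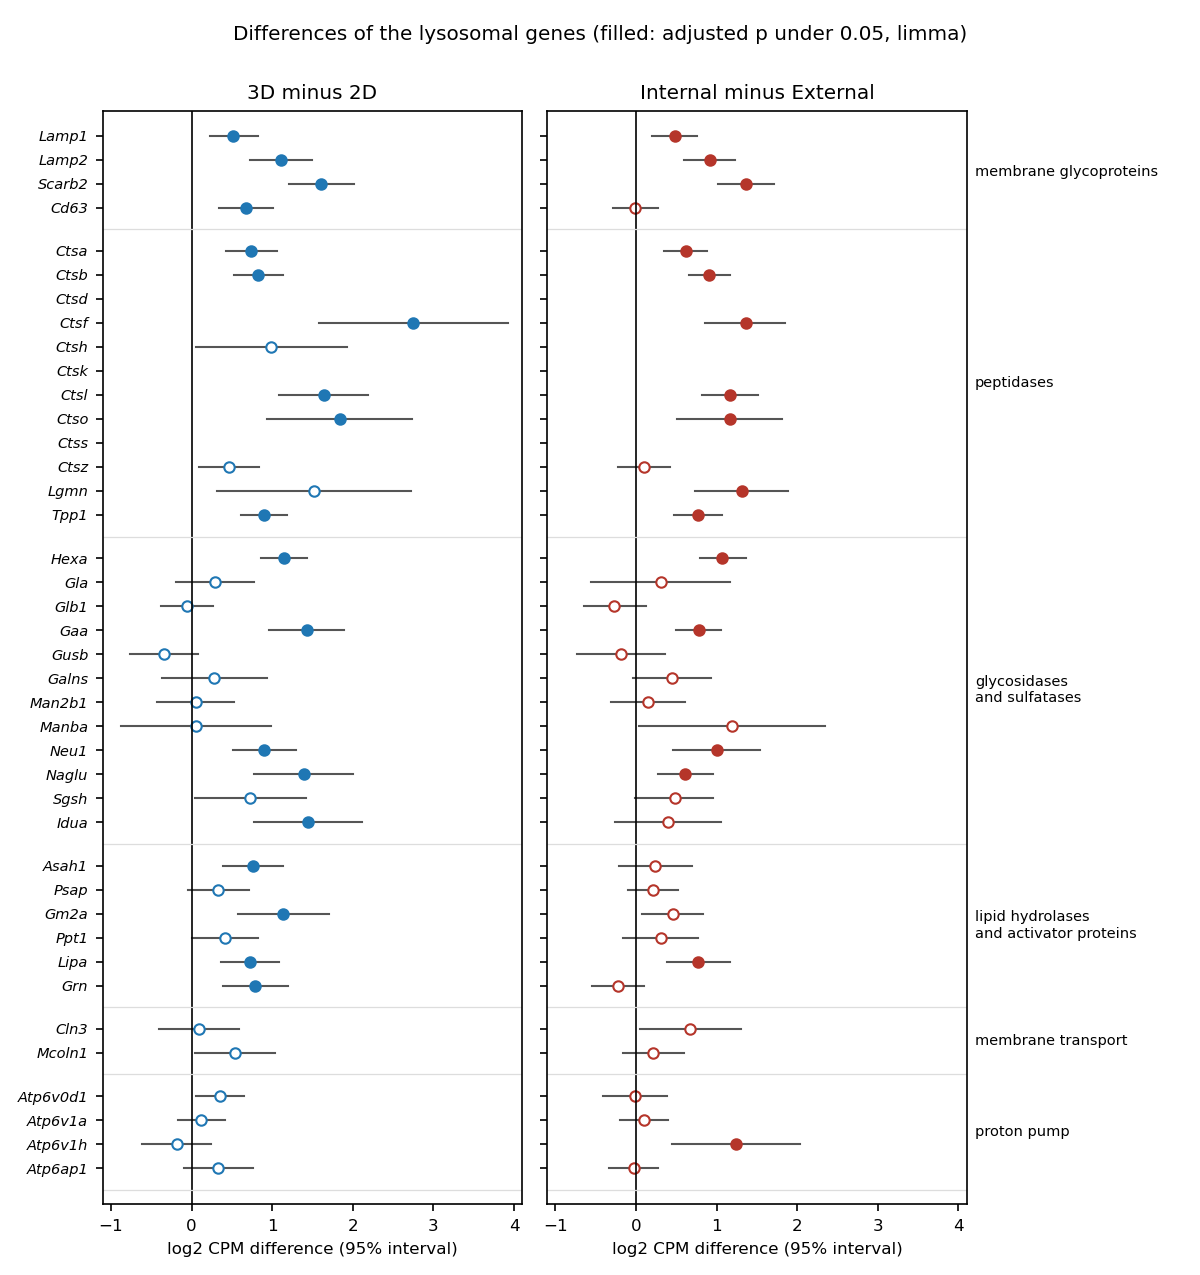
Log2 CPM difference of each listed gene (points) with its 95% interval (lines), 3D minus 2D on the left and Internal minus External on the right, by role of the protein. Filled points passed the test, all of them to the right of 0 (19 and 16), and rows without a point were not analysed here.

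The stricter rule for a differentially expressed gene (DEG), which asks for an adjusted p under 0.01 with a log2 difference over 1 in size, was met by 7 genes in 3D (against 2.92% of all genes higher and 1.51% lower) and by 7 in Internal (against 3.27% higher and 4.35% lower). The count in 3D was 4 without 3D replicate 1 (against 1.64% of all genes in the same fit), 2 without 3D replicate 3 (against 0.959%) and 2 without 3D replicate 4 (against 0.985%). In Internal it was 4 without External replicate 2 (against 2.49%) and 3 without External replicate 3 (against 2.65%). In fits without limma's variance trend, which lets the expected spread depend on the level, the counts were 4 in 3D (against 2.05%) and 1 in Internal (against 1.04%). All 3D samples lay above all 2D samples for 18 genes (against 12.0% of all genes, and 12.0% with all 3D samples below), and all Internal above all External samples for 18 genes (against 13.5%, and 15.4% below).

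Passing the test in both comparisons, 14 of the 36 genes were higher in 3D and in Internal, against 3.62% of the 11041 genes. They were *Lamp1*, *Lamp2* and *Scarb2* of the membrane, the peptidases *Ctsa*, *Ctsb*, *Ctsf*, *Ctsl*, *Ctso* and *Tpp1*, the glycosidases *Hexa*, *Gaa*, *Neu1* and *Naglu*, and the lipase *Lipa*. *Cd63*, *Idua*, *Asah1*, *Gm2a* and *Grn* passed in 3D against 2D but not in the regions, *Lgmn* and *Atp6v1h* in the regions but not in the cultures, and 15 passed in neither. Whether a gene's difference itself differed between the comparisons was not tested, since the tables were normalized separately.

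**Figure D2:**
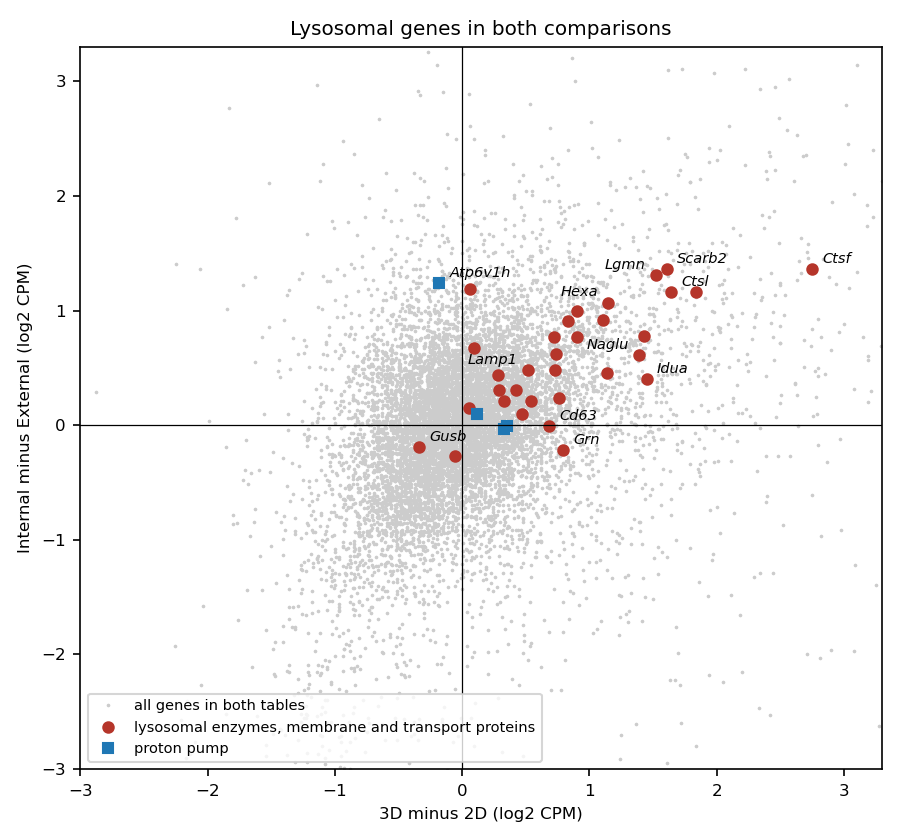
Log2 CPM difference of genes present in both tables, 3D minus 2D on the horizontal and Internal minus External on the vertical axis, with all 11041 genes in grey (205 of them lie outside the axes), the proton pump genes as squares and the other listed genes as circles. Most circles lie in the upper right part, while the squares other than *Atp6v1h* lie near 0 on the vertical axis.

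The listed genes also took up a larger part of the counted reads. The 36 genes held 0.601, 0.675, 0.639 and 0.622% of the reads in the 2D samples and 0.999, 0.955, 1.12 and 1.16% in the 3D samples. In the regions they held 0.906, 0.991 and 0.878% in External and 1.42, 1.31, 1.29 and 1.26% in Internal. The groups did not overlap in either comparison, which was described without a test. *Cd63* and *Lamp1* supplied much of this sum, and without them the remaining genes held 0.348 to 0.415% in 2D, 0.605 to 0.782% in 3D, 0.59 to 0.645% in External and 0.881 to 1.01% in Internal. Other abundant genes stayed in this remainder, among them *Ctsb* and *Ctsl*. In 3D *Ctsl* had 9387 to 17211 reads, against 8137 to 9754 for *Lamp1*. How far the rise rested on a few abundant genes was not tested. Within groups the genes did not all follow the same sample. The highest 2D sample was replicate 2 for 17 of the 36 genes (30.5% of all genes) and the lowest was replicate 4 for 17 (26.1%), and among the Internal samples replicate 1 was the highest for 15 (23.3%) and the lowest for 1 (24.2%).

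**Figure D3:**
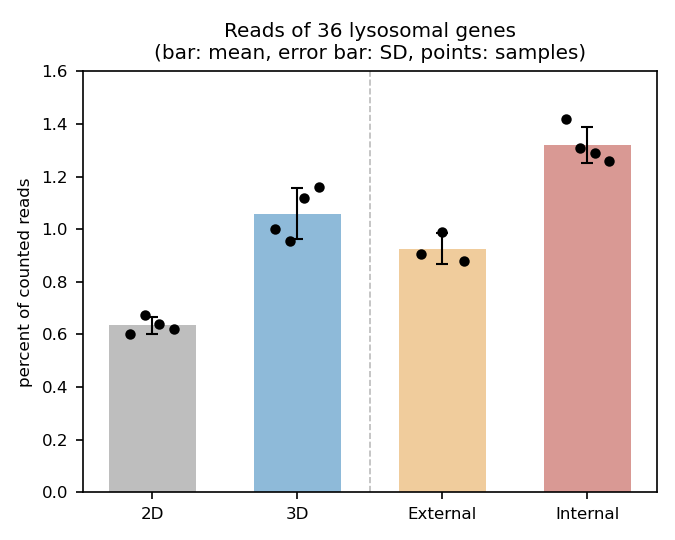
Percent of counted reads that fell on the 36 lysosomal genes in each sample (points), with the group mean (bar) and SD (error bar), n = 4 for 2D, 3D and Internal and n = 3 for External. The mean was 0.634 ± 0.031% in 2D and 1.058 ± 0.097% in 3D, and 0.925 ± 0.059% in External and 1.32 ± 0.07% in Internal.

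All 4 membrane glycoproteins passed the test as higher in 3D (against 9.74% of all genes), and 3 of the 4 as higher in Internal (against 9.58%). *Scarb2* encodes the receptor that carries β-glucocerebrosidase to the lysosome (chr5:92441314-92506833 on GRCm38). Its log2 CPM was 6.68, 6.27, 6.41 and 6.29 in the 2D samples and 7.91, 7.57, 8.37 and 8.26 in the 3D samples. It was 7.85, 7.07 and 7.06 in External and 8.65, 8.74, 8.74 and 8.64 in Internal. The groups did not overlap, External replicate 1 was the sample nearest to Internal, and the 4 Internal samples lay within a narrow band. The log2 difference was 1.61 ± 0.18 (SE) in 3D, a 3.06-fold higher level (limma, adjusted p = 0.000727), and 1.36 ± 0.17 in Internal, 2.57-fold (adjusted p = 2.31e-06).

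*Lamp2*, one of the 2 major glycoproteins lining the lysosomal membrane (chrX:38401357-38456454), had a log2 CPM of 7.71, 7.26, 7.49 and 7.4 in 2D and of 8.57, 8.09, 8.81 and 8.82 in 3D. In the regions it stood at 7.46, 7.1 and 6.93 in External and at 8.16, 7.98, 7.98 and 8.2 in Internal. As for *Scarb2*, 2D replicate 1 and External replicate 1 were the highest of their groups and 3D replicate 2 the lowest of its group, without overlap. *Lamp2* was 2.16-fold higher in 3D (log2 difference 1.11 ± 0.18, limma adjusted p = 0.00287) and 1.89-fold higher in Internal (0.92 ± 0.15, adjusted p = 9.81e-05).

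*Lamp1*, the other major membrane glycoprotein (chr8:13159161-13175338), was among the most abundant of the listed genes, the 124th of 11677 genes by mean level in the cultures and the 55th of 11299 in the regions. It ranged from 9.27 to 9.73 log2 CPM in 2D and from 9.98 to 10.24 in 3D, and from 10.03 to 10.33 in External and from 10.51 to 10.96 in Internal. The groups did not overlap, but the differences were smaller, 0.52 ± 0.13 or 1.44-fold in 3D (limma, adjusted p = 0.0226) and 0.48 ± 0.14 or 1.39-fold in Internal (adjusted p = 0.0131). The call in 3D was lost without 3D replicate 1 (adjusted p = 0.0546), 3D replicate 3 (0.0572) or 3D replicate 4 (0.0726), and that in Internal without Internal replicate 1 (0.0616), External replicate 3 (0.0595) or the variance trend (0.124). *Cd63*, a tetraspanin of late endosomes, lysosomes and secreted vesicles, was the most abundant listed gene, the 48th and 36th of the tables. It ranged from 10.31 to 10.86 log2 CPM in 2D and from 11.19 to 11.47 in 3D, a 1.6-fold higher level (log2 difference 0.68 ± 0.15, limma adjusted p = 0.0134). In the regions its groups overlapped, from 10.7 to 11.2 in External and from 10.88 to 11.03 in Internal, with a difference of -0.01 and a 95% interval from -0.29 to 0.27.

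**Figure D4:**
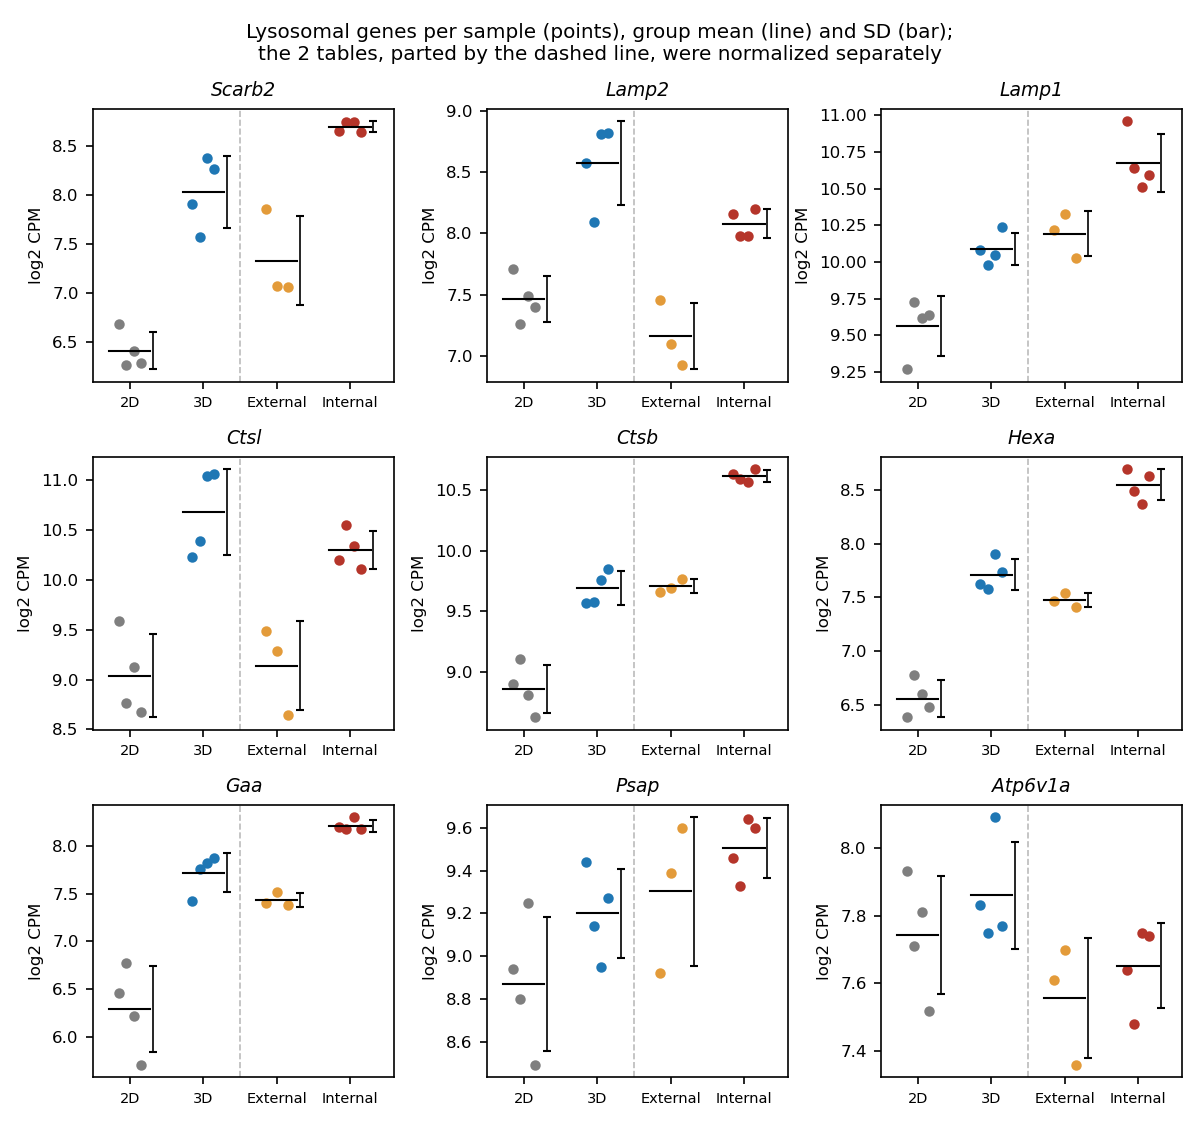
Log2 CPM per sample (points), group mean (line) and SD (bar) of 9 lysosomal genes, with 2D and 3D to the left and External and Internal to the right of the dashed line, which parts the separately normalized tables. The groups of *Scarb2*, *Lamp2*, *Lamp1*, *Ctsl*, *Ctsb*, *Hexa* and *Gaa* do not overlap, while those of *Psap* and *Atp6v1a* do.

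Among the peptidases, 6 of the 9 measured in the cultures were higher in 3D (66.7%, against 9.74% of all genes) and 7 of the 8 measured in the regions were higher in Internal (87.5%, against 9.58%). *Ctsl*, a cysteine cathepsin that cuts within protein chains (chr13:64359337-64370890), had a log2 CPM of 9.59, 8.77, 9.13 and 8.67 in 2D and of 10.23, 10.39, 11.04 and 11.06 in 3D. Its regional values were 9.49, 9.29 and 8.64 in External and 10.2, 10.55, 10.34 and 10.11 in Internal. Neither pair of groups overlapped, although the samples of 2D, 3D and External were spread widely, with an SD of 0.41, 0.43 and 0.44. The level was 3.11-fold higher in 3D (log2 difference 1.64 ± 0.25, limma adjusted p = 0.00239) and 2.24-fold higher in Internal (1.16 ± 0.16, adjusted p = 1.54e-05). *Ctsl* overlaps 1 annotated gene on the same strand (*Gm49230*), and reads falling in both could not be told apart.

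*Ctsb*, a cysteine cathepsin that also removes dipeptides from the ends of proteins (chr14:63122462-63145923), was the most even of the peptidases within groups in the regions. Its log2 CPM was 8.9, 9.11, 8.81 and 8.63 in 2D and 9.57, 9.58, 9.76 and 9.85 in 3D. It was 9.66, 9.69 and 9.77 in External and 10.63, 10.59, 10.56 and 10.67 in Internal, an SD of 0.06 and 0.05 within the groups. The groups were separate in both comparisons, and *Ctsb* was 1.77-fold higher in 3D (log2 difference 0.83 ± 0.14, limma adjusted p = 0.00326) and 1.87-fold higher in Internal (0.91 ± 0.12, adjusted p = 7.82e-06).

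*Ctsf*, a cysteine cathepsin of low abundance in the cultures (chr19:4855130-4860918), showed the largest difference of the listed genes in the cultures. Its log2 CPM was 1.35, 2.07, -0.28 and -0.4 in 2D, from 22, 29, 5 and 5 reads, and 3.76, 3.0, 3.46 and 3.53 in 3D, from 63 to 104 reads. In the regions it was 4.47, 5.03 and 4.23 in External and 6.23, 6.04, 5.61 and 5.86 in Internal. The 2D samples fell into a higher and a lower pair, both below every 3D sample, and the regional groups did not overlap. The log2 difference was 2.75 ± 0.53 in 3D (limma, adjusted p = 0.00716), where few reads in 2D make the fold uncertain (95% interval 1.58 to 3.93), and 1.36 ± 0.24 or 2.56-fold in Internal (adjusted p = 0.000193).

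*Ctso*, another cysteine cathepsin (chr3:81932601-81956725), had a log2 CPM of 3.64, 2.4, 2.27 and 2.03 in 2D and of 4.91, 3.46, 4.7 and 4.63 in 3D. Its values were 4.43, 3.54 and 3.15 in External and 4.81, 4.92, 4.96 and 4.76 in Internal. In the cultures 2D replicate 1 lay above 3D replicate 2, so that the groups overlapped, while the regions did not. *Ctso* was 3.58-fold higher in 3D (log2 difference 1.84 ± 0.41, limma adjusted p = 0.0126) and 2.23-fold higher in Internal (1.16 ± 0.31, adjusted p = 0.00944), and the latter call was lost without External replicate 3 (adjusted p = 0.0652).

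*Lgmn*, the asparagine-specific endopeptidase legumain (chr12:102394084-102439813), varied widely between samples. Its log2 CPM was 5.57, 3.31, 4.14 and 4.16 in 2D and 6.19, 4.29, 6.68 and 6.11 in 3D. In External it was 5.97, 5.23 and 4.4, and in Internal 6.5, 7.01, 6.6 and 5.94. The groups overlapped in both comparisons, by 2D replicate 1 and 3D replicate 2 in the cultures and by External replicate 1 and Internal replicate 4 in the regions. The log2 difference was 1.52 ± 0.54 in the cultures, where *Lgmn* did not pass (limma, adjusted p = 0.0752), and 1.31 ± 0.28 or 2.48-fold in Internal, where it did (adjusted p = 0.00134) but not in a fit without the variance trend (0.0732). In the cultures it passed without 2D replicate 1 (1.95, adjusted p = 0.0249) or without 3D replicate 2 (2.03, adjusted p = 0.0171).

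*Tpp1*, which removes tripeptides from the start of proteins (chr7:105744811-105752235), had a log2 CPM of 7.47, 7.05, 7.21 and 7.04 in 2D and of 8.05, 7.99, 8.23 and 8.09 in 3D. It had 7.05, 7.01 and 6.93 in External and 7.6, 7.78, 7.9 and 7.76 in Internal. No groups overlapped, and it was 1.86-fold higher in 3D (log2 difference 0.9 ± 0.13, limma adjusted p = 0.00198) and 1.7-fold higher in Internal (0.77 ± 0.14, adjusted p = 0.000389). *Ctsa*, the carboxypeptidase that protects the sialidase and the β-galactosidase of the lysosome (chr2:164832873-164841032), had a log2 CPM of 6.77, 7.28, 7.1 and 6.96 in 2D and of 7.56, 7.74, 7.86 and 7.93 in 3D. In External it had 8.26, 8.49 and 8.42 and in Internal 9.07, 9.01, 9.0 and 8.95. Again the groups were separate, with *Ctsa* 1.67-fold higher in 3D (log2 difference 0.74 ± 0.14, limma adjusted p = 0.00675) and 1.53-fold higher in Internal (0.62 ± 0.13, adjusted p = 0.00105).

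The remaining peptidases were *Ctsz*, a carboxypeptidase, and *Ctsh*, an aminopeptidase. *Ctsz* ranged from 6.33 to 7.14 log2 CPM in 2D and from 7.04 to 7.34 in 3D (difference 0.47, limma adjusted p = 0.0834), and passed without 2D replicate 2 (0.59, adjusted p = 0.0211). In the regions its difference was 0.1, with a 95% interval from -0.22 to 0.42. *Ctsh* had 11 to 29 reads in 2D and 18 to 53 in 3D, and its difference of 0.99 did not pass (adjusted p = 0.131).

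Of the 12 glycosidases and sulfatases measured, 5 were higher in 3D (41.7%, against 9.74% of all genes) and 4 in Internal (33.3%, against 9.58%). *Hexa*, the α subunit of the β-hexosaminidase that degrades gangliosides (chr9:59539540-59565109), had a log2 CPM of 6.39, 6.78, 6.6 and 6.48 in 2D and of 7.62, 7.58, 7.9 and 7.74 in 3D. It had 7.47, 7.54 and 7.41 in External and 8.69, 8.49, 8.37 and 8.63 in Internal. The gap between the groups was wider than the spread within each of them, and *Hexa* was 2.21-fold higher in 3D (log2 difference 1.15 ± 0.13, limma adjusted p = 0.000727) and 2.1-fold higher in Internal (1.07 ± 0.14, adjusted p = 4.23e-06).

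*Gaa*, the acid α-glucosidase that degrades glycogen (chr11:119267887-119285454), had a log2 CPM of 6.46, 6.78, 6.22 and 5.71 in 2D and of 7.42, 7.76, 7.82 and 7.87 in 3D. The regional values were 7.4, 7.52 and 7.38 in External and 8.2, 8.17, 8.3 and 8.17 in Internal. The groups did not overlap, and the 2D samples were the most spread, with 2D replicate 4 the lowest. *Gaa* was 2.69-fold higher in 3D (log2 difference 1.43 ± 0.21, limma adjusted p = 0.00213) and 1.71-fold higher in Internal (0.78 ± 0.14, adjusted p = 0.000171).

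*Naglu*, the α-N-acetylglucosaminidase of heparan sulfate breakdown (chr11:101070012-101077672), had a log2 CPM of 4.94, 5.48, 4.41 and 4.08 in 2D and of 5.77, 6.09, 6.32 and 6.29 in 3D. It had 6.34, 6.86 and 6.7 in External and 7.25, 7.33, 7.29 and 7.1 in Internal. Again 2D replicate 4 was the lowest sample of its group, and no groups overlapped. The level was 2.62-fold higher in 3D (log2 difference 1.39 ± 0.28, limma adjusted p = 0.0081) and 1.52-fold higher in Internal (0.61 ± 0.16, adjusted p = 0.00865), the latter not without External replicate 1 (adjusted p = 0.0554) or without the variance trend (0.0697).

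*Neu1*, the lysosomal sialidase (chr17:34931253-34935953), had a log2 CPM of 4.12, 3.86, 3.81 and 3.69 in 2D and of 4.74, 4.63, 5.03 and 4.71 in 3D. In External it had 4.61, 4.23 and 3.88 and in Internal 5.16, 4.99, 5.51 and 5.31. The groups stood apart, and *Neu1* was 1.87-fold higher in 3D (log2 difference 0.9 ± 0.17, limma adjusted p = 0.00716) and 2.0-fold higher in Internal (1.0 ± 0.26, adjusted p = 0.0074). *Idua*, the α-L-iduronidase, ranged from 1.37 to 2.48 log2 CPM in 2D and from 2.91 to 3.7 in 3D, 2.72-fold higher (limma, adjusted p = 0.0101). In the regions its groups overlapped (difference 0.4, 95% interval -0.26 to 1.06).

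The 7 glycosidases and sulfatases that passed in neither comparison were *Gla*, *Glb1*, *Gusb*, *Galns*, *Man2b1*, *Manba* and *Sgsh*. The α-galactosidase *Gla*, the β-galactosidase *Glb1*, the β-glucuronidase *Gusb* and the α-mannosidase *Man2b1* differed by 0.29, -0.06, -0.34 and 0.05 between 3D and 2D, and by 0.31, -0.27, -0.19 and 0.15 between Internal and External. Their intervals were narrow for *Glb1* (-0.38 to 0.26 and -0.65 to 0.12) and wide for *Gla* in the regions (-0.56 to 1.17). The sulfamidase *Sgsh* differed by 0.73 and 0.48, and passed in 3D without 2D replicate 2 (0.93, adjusted p = 0.0455). The β-mannosidase *Manba* had 9 to 26 reads in External and 20 to 154 in Internal, without overlap, but its difference of 1.19 did not pass (adjusted p = 0.136), and the sulfatase *Galns* differed by 0.28 and 0.44. *Glb1*, *Galns* and *Manba* each overlap another annotated gene on the same strand.

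Of the lipid hydrolases and activator proteins, 4 of 6 were higher in 3D (66.7%, against 9.74% of all genes). In Internal 1 of 6, *Lipa*, was higher (16.7%, against 9.58%), a count near the share of all genes. *Lipa*, the acid lipase of cholesteryl esters and triglycerides (chr19:34492318-34527474), had a log2 CPM of 6.38, 6.7, 6.19 and 6.28 in 2D and of 7.21, 6.82, 7.4 and 7.02 in 3D. It had 5.36, 5.7 and 5.97 in External and 6.53, 6.45, 6.43 and 6.38 in Internal. The culture groups came close, 2D replicate 2 lying just under 3D replicate 2, but did not overlap. *Lipa* was 1.65-fold higher in 3D (log2 difference 0.72 ± 0.16, limma adjusted p = 0.0132) and 1.7-fold higher in Internal (0.77 ± 0.19, adjusted p = 0.00457).

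The acid ceramidase *Asah1* was 1.7-fold higher in 3D (4.84 to 5.55 log2 CPM in 2D, 5.92 to 6.18 in 3D, limma adjusted p = 0.0129) and overlapped between regions (difference 0.24, 95% interval -0.21 to 0.69). *Gm2a*, the activator protein that presents gangliosides to β-hexosaminidase, was 2.21-fold higher in 3D (4.5 to 5.85 against 6.04 to 6.4, adjusted p = 0.0134). In the regions all 4 Internal samples of *Gm2a* lay above the 3 External samples, but the difference of 0.46 did not pass (adjusted p = 0.074). *Grn* encodes progranulin, which is cut into granulins in the lysosome. It was 1.73-fold higher in 3D (8.44 to 9.18 against 9.15 to 9.68, adjusted p = 0.0153), with a small overlap between the groups, and lost the call without 3D replicate 3 (adjusted p = 0.053) or 3D replicate 4 (0.0525). In the regions the difference of *Grn* was -0.22 (95% interval -0.55 to 0.1). *Psap*, the precursor of the saposins, and *Ppt1*, the palmitoyl-protein thioesterase, passed in neither comparison, with differences of 0.33 and 0.42 in the cultures and of 0.21 and 0.31 in the regions.

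Among the genes for transport across the membrane and for the proton pump, 0 of 6 passed as higher in 3D (against 9.74% of all genes) and 1 of 6 in Internal (against 9.58%), counts near the shares of all genes. The membrane protein *Cln3* and the cation channel *Mcoln1* passed in neither comparison, with differences of 0.09 and 0.54 in 3D and of 0.67 and 0.21 in Internal. Of the 4 listed genes of the proton pump, 0 passed in 3D at an adjusted p under 0.05 from limma, and 0 also with limma voom, with differences of 0.35 for *Atp6v0d1*, 0.12 for *Atp6v1a*, -0.18 for *Atp6v1h* and 0.33 for *Atp6ap1*. At an unadjusted p under 0.05 there was 1 of the 4, *Atp6v0d1*, when 3930 of 11677 genes had such a p in either direction. *Atp6v1a*, the catalytic subunit, had a 95% interval from -0.17 to 0.41 for 3D against 2D and from -0.2 to 0.4 for Internal against External. In the regions *Atp6v1h*, a regulatory subunit, was 2.36-fold higher in Internal (log2 difference 1.24 ± 0.38, limma adjusted p = 0.0221), from 17 to 72 reads in External and 62 to 274 in Internal. That call was lost without Internal replicate 1 (adjusted p = 0.061), Internal replicate 4 (0.0663), External replicate 2 (0.0602), External replicate 3 (0.122) or the variance trend (0.0505), and with limma voom on recovered reads (0.0663), and the other 3 pump genes differed by -0.03 to 0.1.

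Further lysosomal genes outside the 40 were counted in the same fits. Of 27 other hydrolases and soluble proteins measured, 14 were higher in 3D (51.9%, against 9.74% of all genes) and 0 lower (against 9.25%), with a median difference of 0.78. In Internal 13 were higher (48.1%, against 9.58%) and 1 lower (against 12.1%), with a median of 0.61. The phospholipase *Pla2g15* differed by 1.21 in 3D (limma, adjusted p = 0.00116). The hyaluronidase *Hyal1* had 26 to 50 reads in Internal and 14, 0 and 0 in External. The galactocerebrosidase *Galc*, singled out after its values were seen, was lower in Internal by 1.04 on the log2 scale (a difference of -1.04, limma adjusted p = 0.000513) and did not pass in the cultures (-0.85, adjusted p = 0.0595).

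Of the other membrane proteins, 8 of 21 were higher in 3D (38.1%, against 9.74% of all genes), led by *Laptm4b* (0.95), *Abca2* (0.94) and the cystine exporter *Ctns* (0.86), and 5 of 22 in Internal (22.7%, against 9.58%), led by the cation channel *Tpcn1* (1.24), *Ctns* (1.0) and *Tmem106b* (0.93). The further 2 in Internal, *Laptm4b* (0.6) and *Glmp* (0.48), were named after their values were seen. Among 15 other subunits of the proton pump, 6 were higher in 3D (40.0%, against 9.74% of all genes, median 0.49). In Internal 2 were higher (13.3%, against 9.58%, a share near that of all genes) and 1 lower (against 12.1%), with a median of 0.27. *Atp6v0e2* differed by 1.34 and 0.7 and *Atp6v1f* by 0.99 in 3D, while *Tcirg1* was lower in Internal (-0.76). *Atp6v0d2*, higher in both, had 0, 3, 0 and 0 reads in 2D, at or under the 3 reads taken as the detection floor, and 10 to 28 in 3D. With these reads it could pass the filter on low abundance mainly through 3D, which favours a call as higher, and it is among the 6.

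**Figure D5:**
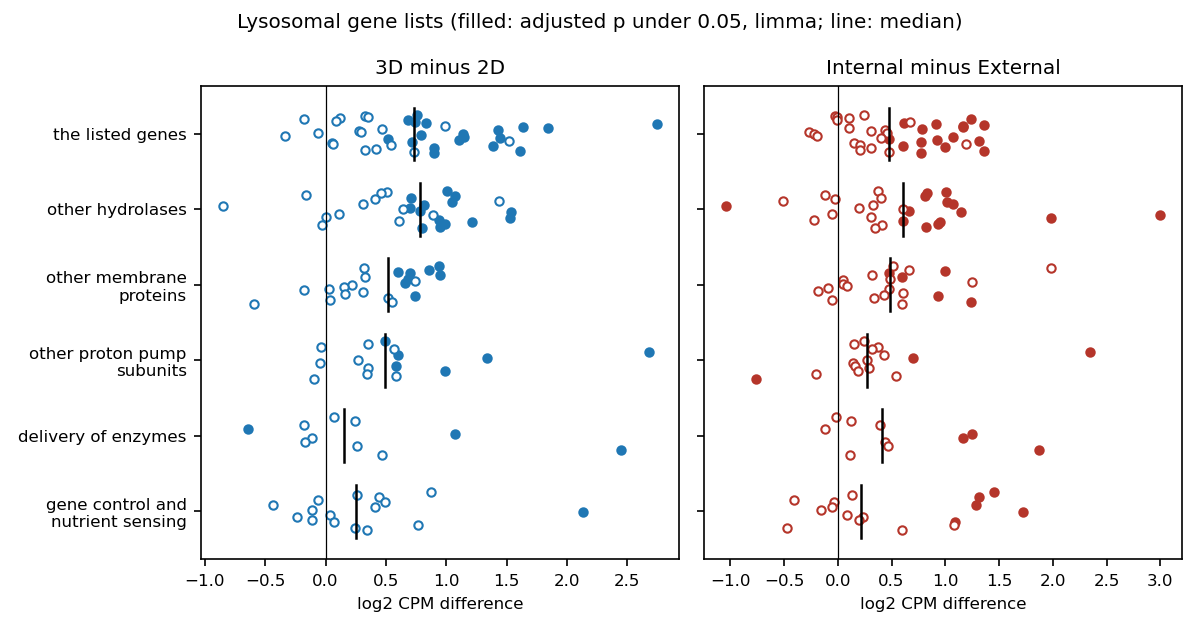
Log2 CPM differences of single genes (points, filled where they passed the test) in the listed genes and 5 further lists of lysosomal genes, with the median of each list (vertical lines), 3D minus 2D on the left and Internal minus External on the right. The medians of the listed genes and of the other hydrolases are 0.73 and 0.78 in 3D, and those of the delivery and control lists lie closer to 0.

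Of the 10 genes that tag and sort enzymes to the lysosome, 2 were higher and 1 lower in 3D (against 9.74% of all genes higher and 9.25% lower, median difference 0.16), and 7 did not pass. In Internal 3 were higher (30.0%, against 9.58%, median 0.42) and 7 did not pass. The sorting receptor *Sort1* had the largest difference, 2.45 in 3D (limma, adjusted p = 0.00904) and 1.87 in Internal (adjusted p = 3.76e-07). It ranged from 0.85 to 3.5 log2 CPM in 2D, from 4.01 to 4.91 in 3D, from 4.43 to 4.82 in External and from 6.41 to 6.51 in Internal. *Gnptg*, a subunit of the enzyme that adds the mannose phosphate tag, was also higher (1.07 and 1.25), whereas *Gnptab*, its catalytic partner, was lower in 3D (-0.64, adjusted p = 0.0282). The mannose phosphate receptor *Igf2r* was higher in Internal (1.16).

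Of 16 genes that control lysosomal genes or sense nutrients at the lysosome, 1 passed in 3D (6.25%, against 9.74% of all genes higher) and 5 in Internal (31.2%, against 9.58%). *Mitf*, the factor named above with the CACGTG core, was the one in 3D, with a log2 CPM of 3.02, 3.29, 3.35 and 2.58 in 2D and of 4.92, 5.37, 5.26 and 5.22 in 3D. In External it had 5.45, 5.2 and 5.28 and in Internal 7.29, 7.23, 6.36 and 7.22. The groups did not overlap, and *Mitf* differed by 2.13 in 3D (limma, adjusted p = 0.000513) and by 1.72 in Internal (adjusted p = 2.31e-06). *Tfeb* and *Tfe3*, of the same family, did not pass, with differences of 0.34 and 0.24 in 3D and of 0.6 and -0.47 in Internal. In Internal *Flcn* (1.45) and *Fnip2* (1.31), which act together on these factors, also passed, as did *Rragc* (1.09) and *Lamtor3* (1.29), the last pair named after their values were seen. Of 2 cystatins measured, the secreted cathepsin inhibitor *Cst3* was higher in 3D (3.03) and in Internal (2.45), and *Cstb* did not pass.

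Other properties moved with the groups. The samples held 7305053 to 9362587 counted reads in 2D, 7727642 to 8364276 in 3D, 4256391 to 11702504 in Internal and 4044230 to 6086089 in External, so that 3 reads stood for 0.248 to 0.802 CPM. This floor covers counting error only, since PCR copies were not separated. The 10 most abundant genes took 15.3 to 18.1% of the reads in Internal and 12.1 to 12.9% in External. Of 13 macrophage markers 2 were listed in the cultures (*Cd68* and *Cx3cr1*), summing to 4.1 to 7.28 CPM in 2D and 5.2 to 7.04 in 3D, and 3 in the regions (*Csf1r* as well), with 7.75 to 26.8 in External and 14.6 to 20.9 in Internal, so that these groups overlapped. Of 6 lens epithelium markers 3 were listed (*Pax6*, *Six3* and *Cryab*), with 781 to 1110 CPM in 2D, 1330 to 1590 in 3D, 719 to 848 in External and 959 to 1260 in Internal, while *Foxe3*, *Cdh1* and *Cryaa* were not analysed here. *Cryab*, a small heat shock protein that lens fibers also express strongly, is not specific to the epithelium. *Pax6* alone differed by 0.69 in 3D (limma, adjusted p = 0.0246) and by 0.65 in Internal (adjusted p = 0.00601). Of 7 lens fiber markers 2 were listed in the cultures (*Prox1* and *Maf*, 46.7 to 87.1 CPM in 2D, 145 to 223 in 3D). In the regions 4 were listed (*Hsf4* and *Bfsp1* as well, 145 to 183 in External, 402 to 446 in Internal). The sums did not overlap between the groups. Singly, 1 of the 2 passed as higher in 3D (against 9.74% of all genes) and 3 of the 4 in Internal (against 9.58%). *Bfsp2*, *Mip* and *Crygs* were not analysed here. Fibroblast markers summed to 115 to 278 CPM in 2D and 548 to 809 in 3D (6 of 7 listed), and to 277 to 663 in External and 531 to 613 in Internal (5 of 7). The differences of the fibroblast genes lay on both sides of 0, from -1.47 to 5.86 in 3D and from -1.56 to 1.59 in Internal. In 3D 3 passed as higher and 0 as lower (against 9.74% and 9.25% of all genes). In Internal 2 passed as higher and 1, *Col1a1*, as lower (against 9.58% and 12.1%). The part of these in the lysosomal differences was not tested.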

How the data were processed

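RNA of 15 samples was sequenced by the QuantSeq 3′ method, which reads transcript ends, so that long and short transcripts give alike counts. Per their methods, the authors retained sense reads, aligned them with STAR 2.7.8a to GRCm38.p6, counted unique reads with featureCounts 1.6.0, filtered genes on low CPM and deposited log2 CPM for every sample, to which a prior count (median 1.9 reads) had been added, in 2 tables with scaled library sizes, each normalized on its own. They also deposited group means, a log2 fold change, an F score, a p-value and an FDR per gene, which were not used. Whole reads were recovered from the deposited values for 100.0% of values (93416 and 79093, tolerance 0.05 reads).

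Each comparison was fitted in its own table with limma 3.58.1 in R 4.3.3 (empirical Bayes, variance trend, two-sided, Benjamini-Hochberg over all genes), on the deposited log2 values because they are not counts. The test was tried on simulated data with 200 genes of each table changed, fewer than passed in the real fits. At a log2 change of 0.6 it recovered 17 of 100 genes in the cultures and 6 of 100 in the regions. At a change of 1.5 it recovered 71 and 52 of 100. A gene that did not pass may therefore still differ. Other computations used Python 3.11.15, numpy 2.4.6, pandas 2.3.3 and matplotlib 3.10.9. Samples were grouped by their labels. The same replicate numbers recur across groups, but no source used here says that they pair samples, and the closing section gives the check. The fits were repeated with no variance trend, with a robust prior, a minimum mean of 3 log2 CPM, prior counts of 0.5 and 5 reads, other library scalings, limma voom on the recovered reads, the replicate number as a block, and leaving out samples.

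The genes and lists were chosen with earlier results of these data known. Values in every sample are given for the 14 genes with the smallest adjusted p among those that passed in either comparison with an absolute log2 difference over 0.58. The rest are given by their difference, some with their range, and of each further list by the rule at most the 3 passing genes with the largest difference, with *Tfeb*, *Tfe3* and *Mitf*. Some genes that this rule selects are not reported here. Positions were taken from the annotation of GRCm38, in which 11676 of 11677 and 11298 of 11299 gene IDs were found. A stretch of 50 nt near the transcript end was shared with another gene in 7 of the listed genes (*Cd63*, *Ctsa*, *Glb1*, *Man2b1*, *Grn*, *Atp6v1a* and *Atp6v1h*), where unique counting may lose reads.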

Additional observations from a re-analysis of the deposited data

Results flagged for a closer look

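Of 110 groups of 4 samples of a listed gene, 1 held a sample far from the others, while chance flags about 1 in 20 such groups. *Ctsh*, an aminopeptidase, had 1.34 log2 CPM (18 reads) in 3D replicate 1, below the range of 2.53 to 2.77 of the other 3D samples. The cause was not tested.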

How the results depend on the processing

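The counts of 19 listed genes higher in 3D and 16 higher in Internal stayed within 17 to 21 and 13 to 16 when a sample was left out (against 5.26 to 12.4% and 6.93 to 9.51% of all genes in the same fits), with 0 lower throughout. The median differences stayed within 0.68 to 0.83 and 0.45 to 0.58. The numbers of higher DEGs stayed within 2 to 9 and 3 to 9, against 0.959 to 4.14% and 2.49 to 3.56% of all genes in the same fits. Without the variance trend the DEGs were 4 in 3D (against 2.05% of all genes) and 1 in Internal (against 1.04%). In Internal 12 genes passed (against 5.52%), and *Lamp1* (adjusted p = 0.124), *Lgmn* (0.0732), *Naglu* (0.0697) and *Atp6v1h* (0.0505) no longer passed. With total reads as library size the median difference in Internal was 0.59 and that of all genes moved by 0.11, *Gm2a* passing (adjusted p = 0.0268), and with samples centred on their median it was 0.41. *Atp6v1h* did not pass with limma voom on the recovered reads (adjusted p = 0.0663). The replicate numbers were not taken to pair the samples, since no source used here says that they do. The deviations of same-numbered samples correlated at 0.227, 0.503, 0.066 and 0.005 in the cultures and at -0.044, -0.065 and -0.063 in the regions. This cannot settle whether the samples were paired. A fit with a replicate block gave 20 and 15 genes as higher (against 11.5% and 6.21%), *Lgmn* passing in 3D (0.00786) and *Atp6v1h* not in Internal (0.0814). Without replicate 2 of both 2D and 3D, 21 genes were higher (against 10.6%) and 10 were DEGs (against 3.40%), *Ctsz* (0.0442) and *Lgmn* (0.0111) among the 21. A minimum mean of 3 log2 CPM left 17 and 16 (against 9.84% and 11.3%). No passing difference changed sign under any of these. The promoter core CACGTG was found in 15 genes, against 7 for the palindrome TCACGTGA. The causes were not tested. Low depth limits *Ctsf*, *Ctsh* and *Manba* in particular.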
